A study of Mus musculus with 2 samples.

Results

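Gastrin and other gut-brain peptides were measured by RNA-seq in cells sorted from the embryonic mouse pancreas. The set was taken by gene symbol and holds 10 precursor genes, Gast, Cck, Cartpt, Nts, Tac1, Gal, Adcyap1, Penk, Gip and Vip. All 10 had a row in both libraries, out of 23284 gene symbols in each. Whole pancreata came from NGN3-EGFP embryos of a mixed, C57BL6 background at e15.5, and GFP-positive cells were sorted after dissociation. Both libraries, replicates 1 and 2, belong to this 1 group, so no comparison of conditions was possible. The labels do not say how the reporter was made, whether it alters a Neurog3 allele, how many embryos were pooled or whether the replicates came from separate litters. The spread between them may therefore be technical.

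Gut-brain peptides are short signalling peptides that endocrine cells of the gut and neurons both release. Each is cut from a longer precursor by prohormone convertases, trimmed by a carboxypeptidase and often amidated at its end, and most act on G protein-coupled receptors on nearby or distant cells. Gastrin drives acid secretion in the adult stomach and is known from the fetal pancreas, where endocrine cells arise from progenitors that transiently express the transcription factor Neurog3.

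Gastrin and cholecystokinin end in the same short amidated sequence, which their shared receptors recognise. The stretches that encode this end are shown because Gast and Cck were the members with the most reads. Over 44 coding bases, 36 or 81.8% were identical without a gap. They lie at coding bases 262 to 305 of 306 in Gast and 295 to 338 of 348 in Cck, from the transcripts Gast-201 and Cck-201 of GENCODE M21, on a build other than that of the files. Capitals mark identical bases.
Gast: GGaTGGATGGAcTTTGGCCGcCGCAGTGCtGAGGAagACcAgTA
Cck: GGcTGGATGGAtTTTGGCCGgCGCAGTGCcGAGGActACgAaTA

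The longest run shared by both coding sequences was 12 bases. No word of 25 bases of Gast, Cck, Gip, Cartpt, Nts, Tac1 or Gal occurred in a transcript of another gene. For Vip, Adcyap1 and Penk, 99.6%, 99.7% and 88.4% of the words were their own. Penk also overlaps the noncoding gene A830012C17Rik in GENCODE M21, so its reads are less certain than those of the other members.

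The 250 bases before the start of the 3 most abundant members are shown as their regulatory sequence, from RefSeq on GRCm38.p6 and in the direction of the gene. Capitals mark CANNTG, the E-box core bound by basic helix-loop-helix factors, the class to which Neurog3 belongs. Gast is at chr11:100334157-100334406 on the plus strand, Cck at chr9:121495695-121495944 on the minus strand and Gip at chr11:96024295-96024544 on the plus strand.
Gast: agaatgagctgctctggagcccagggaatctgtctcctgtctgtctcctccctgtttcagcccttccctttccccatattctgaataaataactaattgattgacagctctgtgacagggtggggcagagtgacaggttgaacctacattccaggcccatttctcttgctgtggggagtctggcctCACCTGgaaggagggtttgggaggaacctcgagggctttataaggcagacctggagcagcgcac
Cck: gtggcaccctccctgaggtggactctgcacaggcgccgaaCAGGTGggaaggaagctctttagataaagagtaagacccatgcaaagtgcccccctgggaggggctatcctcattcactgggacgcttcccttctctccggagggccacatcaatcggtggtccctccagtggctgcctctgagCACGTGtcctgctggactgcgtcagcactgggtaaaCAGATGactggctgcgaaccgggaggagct
Gip: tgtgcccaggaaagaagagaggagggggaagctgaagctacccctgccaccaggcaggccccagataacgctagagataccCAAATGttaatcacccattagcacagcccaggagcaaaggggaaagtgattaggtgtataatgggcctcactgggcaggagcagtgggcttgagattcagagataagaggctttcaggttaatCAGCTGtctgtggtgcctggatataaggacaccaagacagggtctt

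Searched on both strands, CANNTG began at position -64 from the start in Gast, at -210, -66 and -30 in Cck and at -169 and -46 in Gip. It was present in 66.2% of 32851 windows of the same length, so its presence is common. The narrower CAGATG, which is contained in CANNTG, was found in Cck at -30, in Cartpt at -161, in Tac1 at -173 and in 14.4% of all windows. TATAAA, the core of a TATA box, began at -157, -147 and -30 in Vip and at -58 in 1 of the 2 windows of Adcyap1. In Gast it was met at -28 on the other strand only, where the direction of the gene reads TTTATA. On either strand it was found in 12.4% of all windows. RefSeq windows were matched for 9 of the 10 members, and Penk was not matched. CANNTG was in 6 of these 9, including Nts, which had no reads, and was not found in Gal, Adcyap1 or Vip. These matches describe the letters only.

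The sorted cells held transcripts of their defining genes. All 10 endocrine progenitor markers were found in both libraries at 1 CPM (reads of the gene per 1000000 counted reads) or more, with Neurog3 at 736 CPM in replicate 1 against 551 CPM in replicate 2. The libraries held 12495143 and 12043734 counted reads. The 10 markers summed to 10393 and 10560 CPM, with Chgb alone at 5381 and 5786 CPM. The 9 islet hormone genes, described below, were higher, with sums of 35516 and 51288 CPM. Markers of mesenchymal, enteric neuron and neural crest, gut epithelium and acinar cells were lower in sum than the progenitor markers, and uneven. The 8 mesenchymal markers summed to 422 CPM in replicate 1 against 138 CPM in replicate 2, and all 8 were higher in replicate 1. The exact binomial test below called all 8 toward replicate 1, beside 41.7% of all genes tested. The 11 markers of enteric neurons and neural crest summed to 280 and 132 CPM, 3 of them reached 1 CPM in both libraries, and Foxd3 and Chat, among others, had no read. Of 7 gut epithelium markers measured, only Vil1 reached 1 CPM in both libraries, and Cdx1, Cdh17, Fabp2, Sox2 and Lgr5 had no read. Cdx2 had no read in replicate 1 and 21 reads, or 1.74 CPM, in replicate 2. The list summed to 61.7 and 43.1 CPM. The 8 acinar markers summed to 1603 and 1211 CPM, and 6 reached 1 CPM in both libraries. Beside these counts, 45.7% of all genes reached 1 CPM in both libraries, and 8137 of the 23284 genes had no read in either.

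Gastrin, cholecystokinin and glucose-dependent insulinotropic polypeptide (GIP) transcripts made up nearly all reads of the peptide precursors. Gast, Cck and Gip together held 97.5% of the member reads in replicate 1 and 97.8% in replicate 2. Gast, Cck, Gip, Cartpt and Tac1, 5 of 10 members, reached 1 CPM in both libraries, while Gal and Penk did so in 1 library each and Vip, Nts and Adcyap1 in neither. Of all genes in the files 45.7% reached 1 CPM in both libraries, so the share of members detected was near that of genes at large. In pooled sorted cells, fewer cells of a type and less RNA per cell cannot be told apart.

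**Figure D1:**
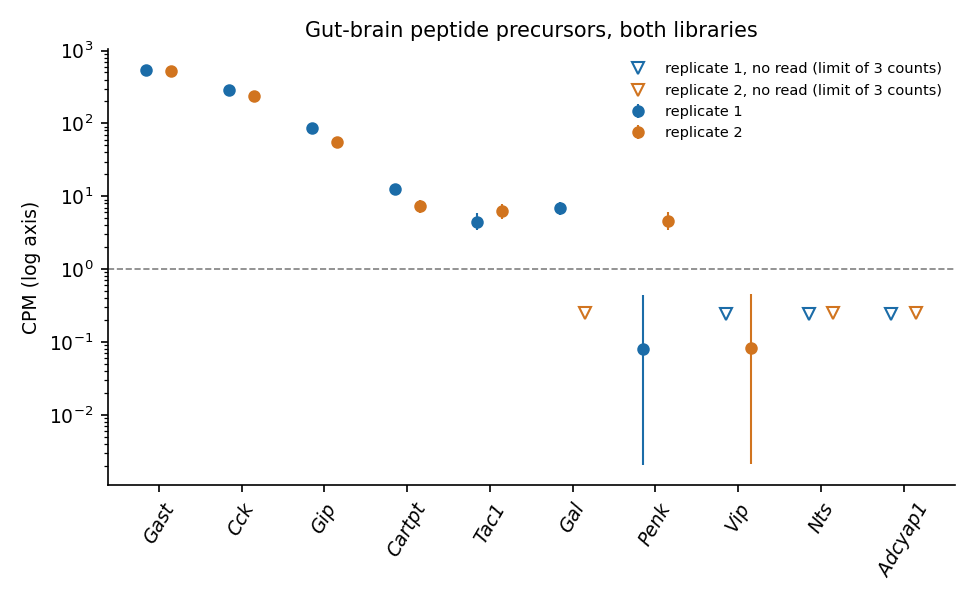
Levels of the 10 peptide precursors in CPM on a log axis, by gene, with replicate 1 in blue and replicate 2 in orange. Bars are exact 95% intervals for counting error, open triangles stand for no read at the limit of 3 counts, 0.241 CPM in replicate 1 or 0.248 CPM in replicate 2, and the dashed line is 1 CPM. Gast, Cck and Gip lie above 50 CPM in both libraries, and Gal and Penk are above 1 CPM in only 1 library each.

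Gast, the precursor of gastrin, had 6763 reads in replicate 1 and 6386 in replicate 2. These gave 544 CPM (exact Clopper-Pearson 95% interval 531 to 557) and 528 CPM (515 to 541). The mean was 536 ± 11.1 CPM (SD, n = 2), and the intervals of the libraries overlapped. By CPM, which favours long transcripts, Gast ranked 179th and 170th among the 23284 genes. Per kb of exon, at 1182 and 1148 CPM per kb, it ranked 17th in both libraries among the 22824 genes with a known length. Its exons total 460 bases, fewer than those of any other member.

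Cck, the precursor of cholecystokinin, had 3610 and 2869 reads, or 290 CPM (281 to 299.8) and 237 CPM (229 to 246). The intervals did not overlap, and replicate 1 was higher. The mean was 264 ± 37.5 CPM (SD, n = 2). Gast was above Cck in both libraries, per kb of exon by 4.73-fold in replicate 1, against 5.62-fold in replicate 2. With 2 libraries an exact permutation test of such an order cannot give a p below 0.5, so orders are given as values.

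Gip, the precursor of the incretin made by K cells of the adult gut, had 1088 and 664 reads, or 87.5 CPM (82.3 to 92.8) and 54.9 CPM (50.8 to 59.2). Replicate 1 was again higher, with no overlap of the intervals, and the mean was 71.2 ± 23.0 CPM (SD, n = 2). Per kb of exon Cck was above Gip by 1.96-fold and 2.55-fold. Gip encodes a peptide of the glucagon and secretin family, to which Vip, Adcyap1 and Gcg also belong.

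Cartpt, the precursor of the appetite-suppressing peptide CART, had 155 and 88 reads, or 12.5 CPM in replicate 1 against 7.27 CPM in replicate 2. Its intervals, 10.6 to 14.6 and 5.83 to 8.96 CPM, did not overlap. Tac1, which encodes the tachykinins substance P and neurokinin A, had 56 and 76 reads, or 4.50 CPM (3.40 to 5.85) and 6.28 CPM (4.95 to 7.86), with overlapping intervals. Both were far below Gip in each library.

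Gal and Penk were each found in 1 library. Gal, the precursor of galanin, had 85 reads in replicate 1, or 6.83 CPM (5.46 to 8.45), and none in replicate 2. A count of 0 was given a limit of 3 counts, equal to 0.241 CPM in replicate 1 against 0.248 CPM in replicate 2. In replicate 1 Gal was 27.6-fold above the limit for replicate 2. This fold, like the others against such a limit, leaves out the counting error of the higher count. Penk, which encodes the enkephalin opioid peptides, went the other way, with 1 read in replicate 1 and 56 in replicate 2. These are 0.08 CPM (0.002 to 0.448) and 4.63 CPM (3.50 to 6.01), a ratio of 57.6 with a counting interval from 9.92 to 2315.

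Such a gap was not rare for genes with so few reads. Of 1144 genes with 50 to under 100 reads in replicate 1, the range that holds Gal, 99 or 8.65% had none in replicate 2. Of 1177 genes with that many reads in replicate 2, the range that holds Penk, 261 or 22.2% were at least 10-fold higher there than in replicate 1. Among the same 1177 genes, 161 or 13.7% had no read in replicate 1, where Penk had 1. The share with a ratio as large as that of Penk was not counted. Mesenchymal and enteric neuron markers were higher in sum in replicate 1, as Gal was. Most of the enteric sum came from Ret, at 226 CPM in replicate 1 against 105 CPM in replicate 2. Of the 7 enteric markers with at least 10 reads, the exact binomial test below called 4 toward replicate 1 and 3 toward replicate 2. Of all genes tested 41.7% and 44.1% were called these ways. The part of such cells in the difference of Gal was not tested.

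Vip, Nts and Adcyap1 were at or near 0. Vip, the precursor of vasoactive intestinal peptide, had no read in replicate 1 and 1 read in replicate 2, or 0.083 CPM (0.002 to 0.461). Nts (neurotensin) and Adcyap1, which encodes the neuropeptide PACAP, had no read in either library, so that 0.241 CPM (replicate 1) and 0.248 CPM (replicate 2) remain possible. That limit is what a count of 0 allows, and lower levels can still give a read, as for Vip.

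Per kb of exon the order was Gast, Cck, Gip, Cartpt and Tac1 in both libraries, among the members detected in both. Each of the 5 lay above the next in every library, and the lowest value of one lay above the highest of the next. The narrowest gap was between Cartpt, at 9.76 and 5.70 CPM per kb, and Tac1, at 3.66 and 5.11 CPM per kb. In replicate 2 their counting intervals overlapped, at 5.83 to 8.96 CPM for Cartpt and 4.95 to 7.86 CPM for Tac1. Their order there is therefore within counting error. Gal, at 8.67 and 0 CPM per kb, and Penk, at 0.055 and 3.19 CPM per kb, overlapped with their neighbours and have no fixed place. The level of Tac1 depends on the transcripts counted as exon, with a mean of 4.38 CPM per kb for the basic set and 1.59 CPM per kb for the full annotation.

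Gast was the main source of member reads in each library. It held 57.5% of them in replicate 1 (56.6% to 58.4%) and 63.0% in replicate 2 (62.0% to 63.9%), or 74.8% and 79.4% when reads were divided by exon length. Cck followed with 30.7% and 28.3% of the reads and Gip with 9.25% and 6.55%. The 10 genes together took 0.094% and 0.084% of all counted reads.

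All 9 islet hormone genes reached 1 CPM in both libraries, beside 45.7% of all genes, and Gast stood within their range. Per kb of exon Gcg (proglucagon), the highest, was above Gast by 10.9-fold in replicate 1, against 19.3-fold in replicate 2. Ins1, Ins2, Iapp and Pyy were also above Gast, at 7888, 3891, 3390 and 4594 CPM per kb in replicate 1. In replicate 2 they were at 11675, 4924, 3724 and 3978 CPM per kb. Ghrl (ghrelin) was above Gast too, with a Gast to Ghrl ratio of 0.819 and 0.648. Sst (somatostatin) was close below, with a Gast to Sst ratio of 1.40 and 1.07. By CPM this order turned, with ratios of 0.891 and 0.681, since Sst has 721 exon bases.

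Gast was above Ppy (pancreatic polypeptide) per kb of exon by 3.70-fold and 3.64-fold and above Npy (neuropeptide Y) by 9.51-fold and 8.96-fold. Cck lay between Ppy and Npy, with a ratio per kb of 0.782 and 0.647 to Ppy and of 2.01 and 1.59 to Npy. Gip and Npy could not be ordered, since their ratio per kb was 1.02 in replicate 1 and 0.624 in replicate 2. Gast was also above Neurog3 per kb of exon, by 2.47-fold and 3.20-fold, although it was below it by CPM, with ratios of 0.739 and 0.957.

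**Figure D2:**
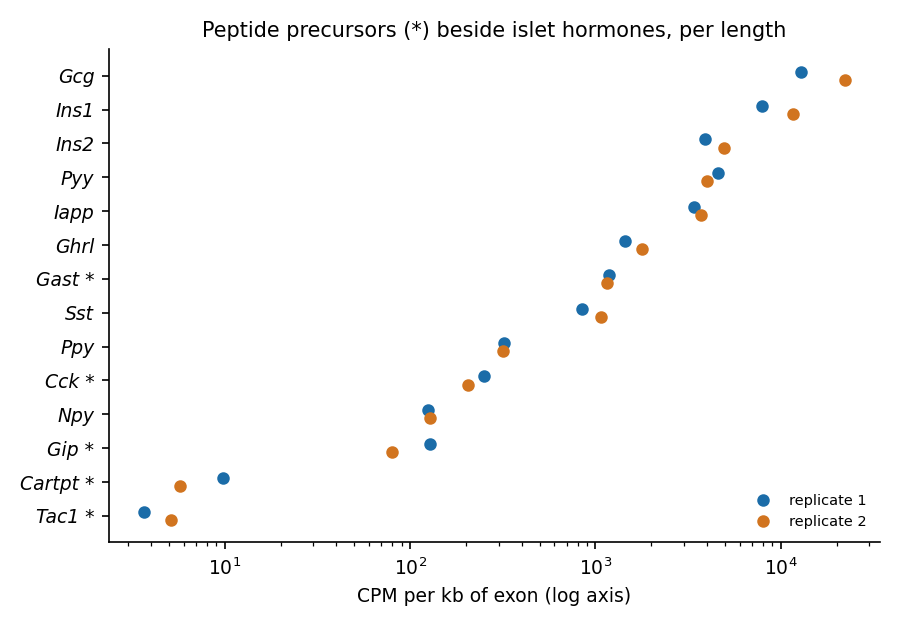
Levels per length, in CPM per kb of exon on a log axis, of the 5 peptide precursors detected in both libraries, marked with an asterisk, and the 9 islet hormones. Points are replicate 1 in blue and replicate 2 in orange, and genes are ordered by their mean. Gast, at 1182 and 1148 CPM per kb, lies between Ghrl and Sst, and Cck and Gip lie on either side of Npy by their means.

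The genes nearest to Gast in level were of other kinds. By the sum over both libraries of the absolute difference in log2 CPM, the nearest 5 were Celf3, an RNA-binding splicing regulator, Rtn3, a reticulon of the endoplasmic reticulum, Rbm5, an RNA-binding protein, Chd4, a chromatin remodeller, and Canx (calnexin), a chaperone. Their summed distances were 0.033, 0.039, 0.061, 0.074 and 0.093 on the log2 CPM scale. Celf3 was at 539 CPM in replicate 1 against 520.3 CPM in replicate 2. Levels in 2 libraries of 1 group are matched here, not a pattern across conditions. Per kb of exon Celf3 was at 166 and 160 CPM per kb, far below Gast.

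The difference of each member between the libraries was tested with a two-sided exact binomial test of its reads, given the scaled library sizes, with Benjamini-Hochberg adjustment over the 13416 genes with at least 10 reads. This compares these 2 libraries only and counts reads as independent molecules, so its p-values cover counting error alone and say nothing of a difference between conditions. Of all genes tested 85.8% differed at an adjusted p under 0.05, 41.7% toward replicate 1 and 44.1% toward replicate 2. Of the 7 members with enough reads 5 differed. Cck, Gip, Cartpt and Gal were higher in replicate 1 and Penk in replicate 2. A difference over 2-fold as well was found for 48.2% of all genes tested and for 2 members, Gal and Penk. Nts, Adcyap1 and Vip had too few reads to be tested.

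Gast did not pass this exact test, with a log2 ratio of replicate 2 to replicate 1 of -0.04 and an adjusted p of 0.105. With DESeq2 size factors it did, at a log2 ratio of -0.06 and an adjusted p of 0.031; over all alternatives run its adjusted p was between 0.031 and 0.261. Tac1 did not pass either, with a log2 ratio of 0.47 and an adjusted p of 0.077 by the same exact test. The other ratios were -0.29 for Cck, -0.67 for Gip and -0.76 for Cartpt, with adjusted p-values of 1.4e-15, 2.8e-21 and 6.8e-05 by the exact test. The median over the 7 members was -0.29, beside 0.04 over all genes tested.

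For the 3 most abundant members these differences were set beside those of all genes of like level. The 138 genes with a mean of 500 to under 1000 CPM had a median absolute log2 ratio of 0.21, and Gast was at 0.04. For the 2131 genes from 100 to under 500 CPM the median was 0.40, and Cck was at 0.29 in size. For the 2038 genes from 50 to under 100 CPM it was 0.61, and Gip was at 0.67 in size.

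**Figure D3:**
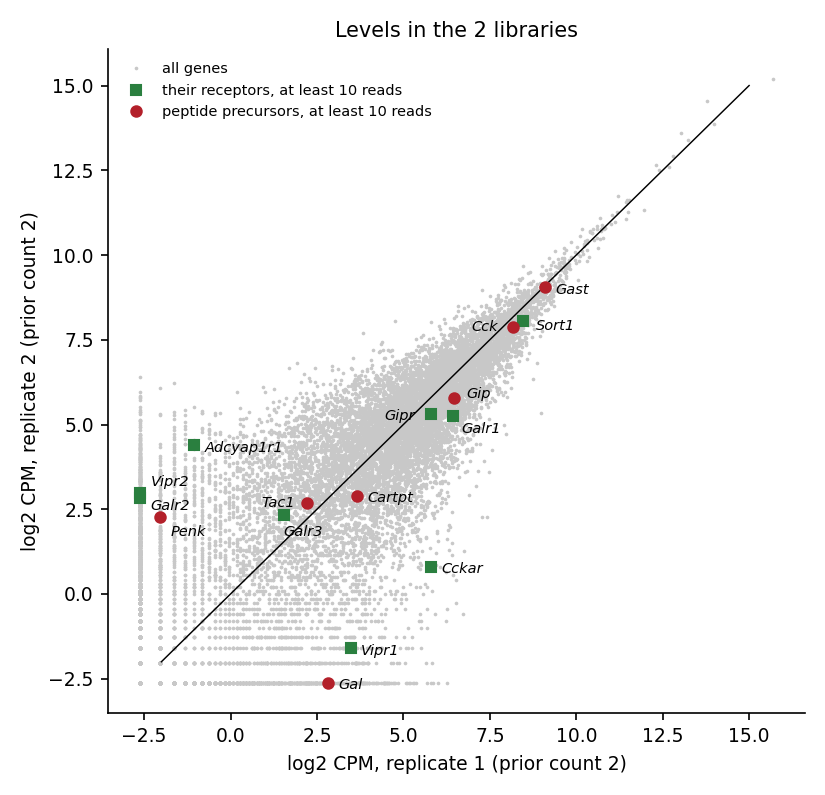
Log2 CPM with a prior count of 2 in replicate 1 on the horizontal axis and replicate 2 on the vertical axis, for all genes in grey, the 7 peptide precursors with at least 10 reads as red circles and their 9 receptors with at least 10 reads as green squares. The line marks equal levels. Gast and Cck lie near the line, while Gal, Penk and several receptors lie along the edges, where a gene has few or no reads in 1 library.

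Of the 18 receptors listed for these peptides, with none listed for CART, 5 reached 1 CPM in both libraries, beside 45.7% of all genes. They were Sort1, Galr1, Gipr, Cckar and Galr3. Taken alone, replicate 1 had 6 and replicate 2 had 8, beside 11712 and 12017 of all 23284 genes. Sort1 encodes sortilin, a sorting receptor that also binds neurotensin and has many other cargoes. It was at 354 CPM in replicate 1 against 263 CPM in replicate 2. Its ligand precursor Nts had no read.

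The receptors of the 2 most abundant precursors gave few reads or uneven ones. Cckbr, the receptor that binds gastrin and cholecystokinin alike, had no read in either library, which allows up to 0.241 and 0.248 CPM. Cckar, which prefers sulfated cholecystokinin, had 685 reads or 55.1 CPM (51.0 to 59.3) in replicate 1 and 19 reads or 1.57 CPM (0.946 to 2.45) in replicate 2. Replicate 1 was higher by 35.1-fold. Of 2117 genes with 500 to under 1000 reads in replicate 1, 72 or 3.40% were at least 10-fold above replicate 2. Cckar is known from acinar cells of the mouse pancreas, and the acinar markers summed to 1603 CPM in replicate 1 against 1211 CPM in replicate 2. Of the 7 acinar markers with at least 10 reads, the exact binomial test called 5 toward replicate 1. It called 2, Cela1 and Cel, toward replicate 2, beside 41.7% and 44.1% of all genes tested toward replicates 1 and 2. Most of the sum came from Ctrb1, at 1321 and 986 CPM. The part of such cells in the difference of Cckar was not tested.

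Gipr, the GIP receptor, was at 55.0 CPM in replicate 1 against 39.8 CPM in replicate 2. Transcripts of both GIP and its receptor were thus present in the pooled sorted cells. Whether the same cells held both cannot be told from a pool. Galr1, a galanin receptor, was at 86.4 and 37.9 CPM, 2.28-fold higher in replicate 1. Galr3 was low, at 2.73 and 4.88 CPM. Galr2 had no read in replicate 1 and 7.03 CPM (5.61 to 8.69) in replicate 2, 29.1-fold above the limit for replicate 1. Gal, the gene of its ligand, had reads in replicate 1 only.

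Receptors of VIP and PACAP were found, but none in both libraries at 1 CPM. Vipr1 was at 10.9 CPM in replicate 1 against 0.165 CPM in replicate 2, from 136 and 2 reads, a ratio of 66.1 with a counting interval from 18.0 to 552. Vipr2 had no read in replicate 1 and 7.77 CPM in replicate 2, 32.2-fold above the limit for replicate 1. Adcyap1r1, the receptor that prefers PACAP, was at 0.322 CPM (0.088 to 0.823) in replicate 1 against 20.7 CPM (18.3 to 23.5) in replicate 2. Of 2741 genes with 200 to under 500 reads in replicate 2, as Adcyap1r1 had, 7.77% were at least 10-fold above replicate 1.

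Receptors of tachykinins, neurotensin and opioids were at or near 0. Ntsr1, Tacr1, Tacr2, Tacr3 and Oprk1 had no read in either library, beside 8137 of all 23284 genes. Ntsr2 and Oprm1 had 2 reads each, in replicate 2, and Oprd1 had 5 reads, in replicate 1. Among the 9 receptors with at least 10 reads all 9 differed between the libraries by the exact binomial test, 5 toward replicate 1 and 4 toward replicate 2, and 6 of them by over 2-fold; these shares stand beside the 85.8% and 48.2% of all genes tested.

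**Figure D4:**
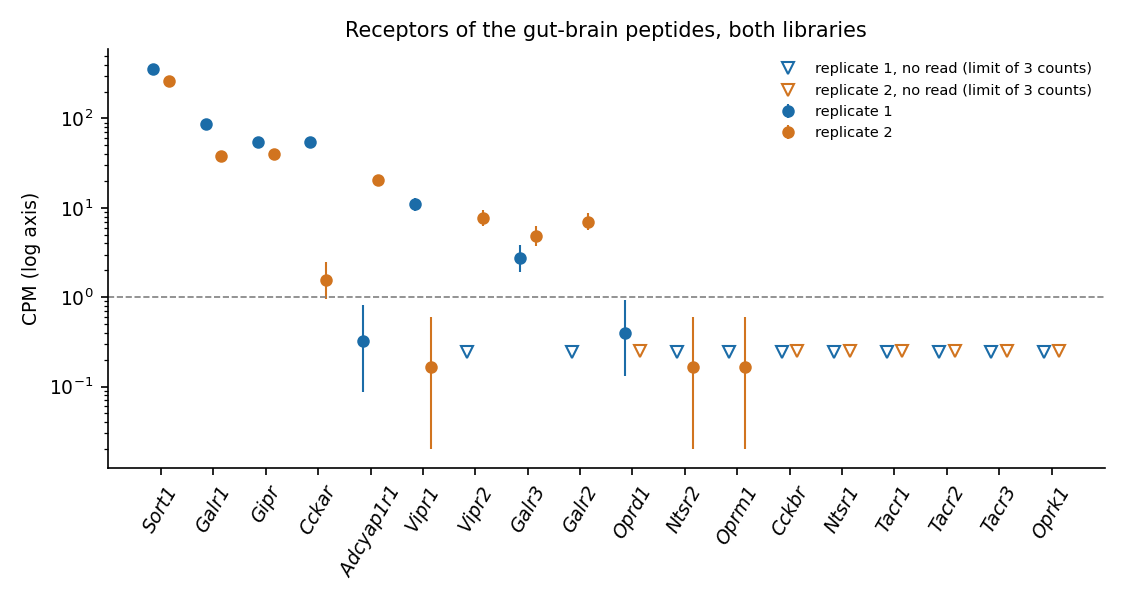
Levels of 18 receptors of the gut-brain peptides in CPM on a log axis, with replicate 1 in blue and replicate 2 in orange. Bars are exact 95% intervals for counting error, open triangles stand for no read at the limit of 3 counts, and the dashed line is 1 CPM. Sort1, Galr1 and Gipr are above 1 CPM in both libraries, Cckar, Adcyap1r1 and Vipr1 differ by 35.1-fold to 66.1-fold between them, and 6 receptors including Cckbr have no read. Of all 23284 genes, 8137 have no read in either library.

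Genes that turn precursors into active peptides were present throughout. All 10 on the list reached 1 CPM in each library, beside 45.7% of all genes. Cpe, the carboxypeptidase that trims the cut ends, was at 2363 CPM in replicate 1 against 3437 CPM in replicate 2. The convertase Pcsk2 was at 669 and 1106 CPM and the convertase Pcsk1 at 214 and 252 CPM. Pam, the enzyme that amidates peptides such as gastrin, cholecystokinin, substance P and galanin, was at 346 and 428 CPM.

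Tpst1 and Tpst2, which add sulfate to tyrosines of cholecystokinin and gastrin, were at 43.0 and 27.0 CPM and at 26.8 and 13.8 CPM. Qpct, which closes the pyroglutamate at the front of gastrin and neurotensin, was at 2.41 and 9.34 CPM. Scg5, a helper of Pcsk2, was at 65.9 and 133 CPM, and Furin, a convertase of the secretory pathway, at 34.2 and 54.1 CPM. By the exact binomial test all 10 differed between the libraries, beside 85.8% of all genes tested. Of them 8 were higher in replicate 2, beside 44.1% of all genes tested. Tpst1 and Tpst2 were higher in replicate 1, beside 41.7%.

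Of the precursors of other gut-brain peptides, 2 of 16 reached 1 CPM in both libraries, beside 45.7% of all genes. Sct, the precursor of secretin, was at 17.4 CPM (15.1 to 19.8) in replicate 1 against 10.99 CPM (9.21 to 13.03) in replicate 2. Pomc, the precursor of melanocortins and beta-endorphin, was at 1.13 and 2.98 CPM. Nmb (neuromedin B) had 299 reads or 24.0 CPM in replicate 1, 96.9-fold above the limit for replicate 2, where it had none. Of 2500 genes with 200 to under 500 reads in replicate 1, 31 or 1.24% had none in replicate 2.

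Pnoc, the precursor of the opioid-like peptide nociceptin, had no read in replicate 1. In replicate 2 it was at 3.47 CPM (2.50 to 4.69), 14.4-fold above the limit for replicate 1. Tac4, a tachykinin precursor, had 7 reads, in replicate 2. Pdyn, the dynorphin precursor, had 2 reads, also in replicate 2. Of the 16 genes 9 had no read in either library, among them the tachykinin gene Tac2, the galanin relative Galp and Grp, the precursor of gastrin-releasing peptide. Of all 23284 genes, 8137 had no read in either library.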

How the data were processed

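The data are 2 RNA-seq libraries of GFP-positive cells. The authors deposited unscaled whole-number counts for each gene symbol, with 1 file per library. The submitters' processing notes list, with no role or order, the build mm9 and the tools TopHat2 2.0.4, Cufflinks 2.0.2, DESeq, cutadapt and FastQC. Not given in the sources used here are the counting program, annotation, strand setting and treatment of reads with several matches.

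Counts were scaled to CPM with the TMM factors 0.9956 and 1.0044, from edgeR 4.0.16 under R 4.3.3. Log2 values used a prior count of 2. Two-sided 95% intervals are exact (Clopper-Pearson), and a count of 0 was given a one-sided limit of 3 counts. Intervals, limits and the binomial test below describe counting error alone, because without molecular identifiers reads can be copies of 1 molecule. Reads were compared between the libraries with the exact binomial test in scipy 1.17.1. It was tried on simulated Poisson counts, which meet its assumption, so that trial cannot show how it behaves on these libraries. Exon lengths come from the basic set of GENCODE M21, which matched 98.0% of symbols. It is on GRCm38, so no mm9 coordinates are given. Promoter windows come from RefSeq on GRCm38.p6, and no protein sequence was used here.

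The members and lists were chosen with earlier results of these data known. Named were all members, Neurog3, up to 6 of the highest genes of each list, receptors at 1 CPM or more in at least 1 library or with no read, and the 5 genes nearest to Gast in level; Sst, Ppy, Npy, Tpst1, Tpst2, Qpct, Tac2, Galp, Grp, Ntsr2, Oprm1, Oprd1, Mme, Ace and the cell type markers with no read were named after their values were seen. The marker Muc2 was not matched, and some list members are counted but not reported here by name.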

Additional observations from a re-analysis of the deposited data

How the results depend on the processing

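Alternatives were DESeq2 1.42.0 size factors, plain column totals, Rn45s left out of the totals, detection limits of 0.5 and 5 CPM, other read filters, another exon set and leaving out each replicate. No paired analysis was possible because there is only 1 group. With a limit of 5 CPM the receptors detected fell from 5 to 3 and the other gut-brain peptides from 2 to 1. Leaving out each replicate gave 6 to 8 receptors, beside 11712 to 12017 of all 23284 genes. The members that differ were 5, but 3 with at least 100 reads, since fewer genes were then tested, and 2 when a 2-fold difference was also required. Without Rn45s in the totals Gast was at 561 CPM against 536 CPM, since the totals were smaller. Its share of member reads was 60.2%, and 77.1% per kb of exon. The call for Gast changed with DESeq2 size factors (adjusted p 0.031 by the exact binomial test). A count of 0 allows up to 0.241 and 0.248 CPM (replicates 1 and 2), and under 100 CPM single genes often differed over 2-fold between the libraries.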

Other observations

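Enzymes that cleave released peptides were also measured. Of 8 peptidases 6 reached 1 CPM in both libraries, beside 45.7% of all genes. Ece1, endothelin-converting enzyme, was at 1555 CPM in replicate 1 against 1868 CPM in replicate 2, above Gast by CPM but below it per kb of exon, at 323 and 388 CPM per kb against 1182 and 1148. Dpp4, which inactivates GIP, was at 9.97 CPM (exact Clopper-Pearson 95% interval 8.29 to 11.9) in replicate 1 against 65.1 CPM (60.6 to 69.8) in replicate 2. Its substrate precursor Gip went the other way, at 87.5 and 54.9 CPM. By the exact binomial test 41.7% of all genes tested were called toward replicate 1 and 44.1% toward replicate 2. Of 2080 genes with 500 to under 1000 reads in replicate 2, as Dpp4 had, 31.1% were at least 2-fold apart. Thop1 and Nln, which cleave neurotensin, were at 32.7 and 8.43 CPM and at 15.8 and 8.85 CPM. Mme (neprilysin), which degrades enkephalins and tachykinins, had no read in replicate 1 and 5 reads in replicate 2, and Ace had none in either library.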
